A study of Mus musculus with 2 samples.

Results

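The 41 genes described here encode the cytosolic aminoacyl-tRNA synthetases, enzymes that make serine, asparagine, cysteine and one-carbon units, and sensors and effectors of the amino acid stress response. They were taken by symbol from a named list, and all 41 were found among the 47719 genes of the table. RNA was sequenced from keratinocytes, which build the epidermis, grown for 3 days in Medium 154CF. The mice, whose tails gave the cells, were C57BL/6J and 8 weeks old. The control culture was of the genotype Pp6fl/fl, in which both copies of the gene for the catalytic subunit of protein phosphatase 6 carry loxP sites. The other culture was of the genotype K5.Pp6fl/fl, where K5 names the promoter of keratin 5, a gene of basal keratinocytes, which in such mice drives a recombinase that acts on the floxed gene. The labels give the genotype name alone and do not describe the recombinase, which is stated here from general knowledge of such lines. They give no other difference between the cultures. Each genotype had 1 culture and 1 library, and the number of tails behind a culture is not in the labels.

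Aminoacyl-tRNA synthetases load each amino acid onto its own tRNA and so supply the ribosome. When an amino acid runs short, uncharged tRNA activates the kinase GCN2, which phosphorylates the initiation factor eIF2, and kinases such as PERK do the same under other stresses. Most translation then slows, while the mRNA of the transcription factor ATF4 is translated better, and ATF4 raises the transcription of synthetases, of enzymes that make non-essential amino acids and one-carbon units, and of stress effectors. Serine made from a glycolytic intermediate feeds the folate cycle, which runs in parallel in the cytosol and in the mitochondria and supplies carbon for purines, thymidylate and methylation. Keratinocytes in culture divide and make large amounts of keratin, which draws on these supplies.

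The sequences bound by ATF4 together with a C/EBP partner share the letters TGATGNAAN, and they are shown because ATF4 is a known regulator of many of these genes. RefSeq promoter windows (build GRCm38.p6, 250 bases before to 50 bases after the start of each gene) matched 31 of the 41 genes, of which Mars was matched by its gene identifier. The motif, searched on both strands, was present in the windows of 9 of these 31 genes, or 29.0%, against 3.95% of all 32851 windows of the same length and 4.5% of all genes with a window. The set was listed mostly as targets of ATF4, so a share above that of all windows may follow from this choice alone. The 9 genes were 5 synthetase genes, Asns, Got1, Chac1 and Trib3. The stretches of 8 of these genes follow. They run along the gene's own strand, the capitals mark the match, and a match that reads NTTNCATCA lies on the opposite strand.
Asns (chr6:7693214-7693242, minus strand): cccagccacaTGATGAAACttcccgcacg
Yars (chr4:129189896-129189924, plus strand): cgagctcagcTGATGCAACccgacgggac
Chac1 (chr2:119351038-119351066, plus strand): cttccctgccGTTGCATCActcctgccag
Got1 (chr19:43524690-43524718, minus strand): cattgcattgGTTGCATCAtacaagcctc
Tars (chr15:11399656-11399684, minus strand): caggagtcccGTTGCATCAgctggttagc
Iars (chr13:49682126-49682154, plus strand): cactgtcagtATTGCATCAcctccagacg
Gars (chr6:55037960-55037988, plus strand): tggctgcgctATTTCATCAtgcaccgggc
Trib3 (chr2:152344029-152344057, minus strand): ttagctcaggTTTACATCAgccgggcggg
Counted from the first transcribed base as position 1, the first base of the match stood at -194 in Chac1, -103 in Got1, -31 in Gars, -23 in Asns, -16 in Tars, 4 in Yars, 7 in Iars and 14 in Trib3. A match describes the letters of these windows and shows no binding.

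RSEM estimates summed over genes to 19374773 reads in the control library and to 17361271 in the K5.Pp6fl/fl library. Ppp6c, the targeted gene, had 1074 and 707 reads, a ratio of 0.733 (0.666 to 0.807), and by FPKM it was at 30.6 and 16.8, a ratio of 0.548. All 8 keratinocyte markers were detected in both libraries, with a summed level of 51427 and 48427 CPM (the usual scaling of counts to library size, with TMM factors). That sum is carried by Krt14 and Krt5, and singly 4 of the 8 had an interval below 1 and 2 above. Trp63, a transcription factor of basal keratinocytes, was lower at 0.776 (0.759 to 0.793), as was Krt10, a keratin of differentiating cells, at 0.77 (0.659 to 0.899). Ivl, a precursor of the cornified envelope, was higher at 1.3 (1.18 to 1.42). Defining markers of immune and endothelial cells were at or near 0 reads, among them Ptprc and Cd3e at 0 in both libraries, and Cd68 was the only immune marker above 1 CPM. No endothelial marker of 5 and 1 fibroblast marker of 7, Thy1, reached 1 CPM, and Lum was at 0 in both libraries. The 7 melanocyte markers, 5 of them at 1 CPM or more, summed to 14.7 CPM in Pp6fl/fl and 21.7 CPM in K5.Pp6fl/fl, and 3 of them, Tyrp1, Dct and Pmel, had intervals above 1. The part of these marker differences in the ratios below was not tested, and in bulk RNA fewer cells of a type and less RNA per cell cannot be told apart.

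No gene of the set differed by 2-fold between the genotypes. The summed level of the synthetases did not differ beyond counting error, whereas among the set's own 10 serine, asparagine and one-carbon enzymes and 4 transsulfuration enzymes and transaminases most had slightly higher levels in the K5.Pp6fl/fl library. One-carbon and folate genes outside the set did not share this, with a median log2 ratio of -0.05 and a summed ratio of 0.974 (0.952 to 0.997). For each gene the ratio is the CPM of K5.Pp6fl/fl over that of Pp6fl/fl, with an exact conditional binomial interval at 95% that covers counting error only. Since neither genotype was replicated, no difference here has a test, and an interval that lies off 1 is no sign that other cultures would differ. All 41 genes passed the floor of 1 CPM in a library. None met the 2-fold rule (a log2 ratio of at least 1 in size after adding 0.5 CPM, with an interval that excludes 1), which 0.811% of the 12325 expressed genes met as higher and 0.195% as lower (0.132% and 0.0% of genes at 50 CPM or more). Of the 41, 14 had an interval above 1 and 4 an interval below 1. Over all expressed genes 16.6% had an interval above 1 and 17.4% below. Narrow intervals come with abundance, and 36 of the 41 genes reached 50 CPM, so the 4538 genes at 50 CPM or more, of which 21.8% lay above and 26.2% below, are the nearer background. The median log2 ratio of the 41 genes was 0.02, against -0.01 over all expressed genes and -0.02 over those at 50 CPM or more.

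**Figure D1:**
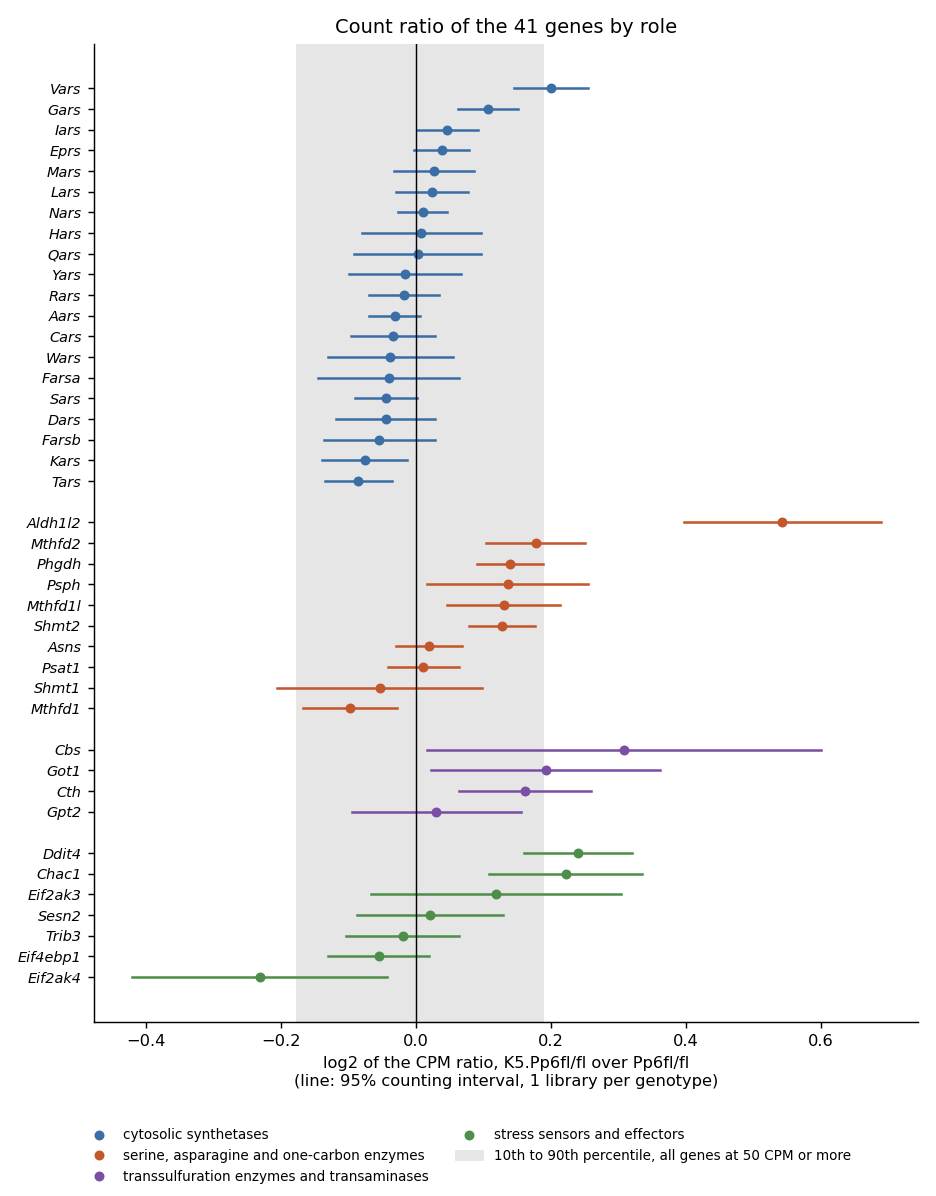
Log2 of the CPM ratio, K5.Pp6fl/fl over Pp6fl/fl, for the 41 genes, 1 library per genotype. Points are ratios, lines are 95% counting intervals, colours are roles, and the grey band holds the middle of all genes at 50 CPM or more (10th to 90th percentile, -0.18 to 0.19). The synthetases gather around 0, and Aldh1l2 lies farthest from it.

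Of the 20 genes for cytosolic synthetases, 19 had a ratio within 10% of 1, while over all genes at 50 CPM or more 71.8% were within 10% (55.0% of all expressed genes). Their log2 ratios ran from -0.08 to 0.20 with a median of -0.02. An interval above 1 was found for 3 of them and below 1 for 2, both smaller shares than among all genes at 50 CPM or more. Their reads summed to 5877 CPM in Pp6fl/fl and 5910 CPM in K5.Pp6fl/fl, a ratio of 1.01 (0.997 to 1.01), on the other side of equality from the median. The level of the synthetase genes as a sum thus did not differ beyond counting error.

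Vars, which loads valine, was the exception. It had 5319 reads in Pp6fl/fl and 5488 in K5.Pp6fl/fl, or 275 and 316 CPM, a ratio of 1.15 (1.11 to 1.19). In the authors' deposited table its log2 fold change is 0.20. Gars, the glycine enzyme, which serves the cytosol and the mitochondria from 1 gene, was at 429 and 462 CPM, a ratio of 1.08 (1.04 to 1.11). Iars, the isoleucine enzyme, was at 412 and 425 CPM, a ratio of 1.03 with an interval that only just cleared 1 (1.0007 to 1.07). On the lower side, Tars, which loads threonine, was at 367 and 346 CPM, a ratio of 0.943 (0.911 to 0.976). Kars, the lysine enzyme, which is also shared with the mitochondria, was at 232 and 220 CPM, a ratio of 0.949 (0.909 to 0.991). These are differences of a few percent, each smaller than that of Vars.

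The remaining 15 synthetase genes had intervals that included 1. Nars, which loads asparagine, was the most read of all, with 12562 and 11364 reads and a ratio of 1.01 (0.982 to 1.03). Aars, the alanine enzyme, had 11865 and 10429 reads and a ratio of 0.979 (0.953 to 1.0). Eprs, a single protein that carries the glutamate and the proline enzymes, had 10304 and 9505 reads and a ratio of 1.03 (0.999 to 1.06). None of these 3 abundant genes was more than a few percent from equality. Farsa and Farsb encode the alpha and beta subunits of the phenylalanine enzyme, and they lay close together, at 0.973 (0.905 to 1.05) and 0.963 (0.91 to 1.02). Qars (glutamine), Hars (histidine), Lars (leucine) and Mars (methionine) had ratios of 1.0, 1.01, 1.02 and 1.02. Rars (arginine), Yars (tyrosine), Cars (cysteine) and Wars (tryptophan) had ratios of 0.988, 0.989, 0.977 and 0.974. Sars (serine) and Dars (aspartate) both stood at 0.97. Aars shares exon sequence with Exosc6 on its own strand, and the values of both genes cannot be separated here.

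Synthetases fall into a pair of structural classes with unrelated catalytic folds, and several of them are joined in a cytosolic multi-synthetase complex. The 10 genes of class I had a median log2 ratio of 0.01 and a summed ratio of 1.02 (1.01 to 1.04), which includes Vars. The 10 of class II had a median of -0.04 and a summed ratio of 0.99 (0.978 to 1.0). The 8 enzymes of the complex (Eprs, Iars, Lars, Mars, Qars, Rars, Kars and Dars) had a median of 0.01 and ran only from -0.08 to 0.05. The 12 genes outside the complex, with both Vars and Tars, had a median of -0.03 and ran from -0.08 to 0.20. Among the scaffold proteins of the complex, Aimp1 was at 1.0 (0.935 to 1.08) and Eef1e1 at 1.04 (0.948 to 1.14), and Aimp2 was lower, at 79.4 and 70.1 CPM, a ratio of 0.883 (0.818 to 0.952). The scaffold genes had a median of 0.00 and a mean of -0.04. None of these subdivisions separated the genotypes by more than a few percent.

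Levels were compared between genes on the deposited FPKM scale, which is per length. Among the synthetases Sars was highest in both libraries, at 349 FPKM in Pp6fl/fl and 357 in K5.Pp6fl/fl, followed by Nars at 278 and 282 and Gars at 207 and 223. Wars was lowest, at 42.9 and 44.1 FPKM, and the highest level was 8.15 times the lowest in Pp6fl/fl and 8.1 times in K5.Pp6fl/fl. The order was almost shared: 14 of 20 genes held the same place in both libraries. The largest move was that of Qars, from place 8 to place 13. Farsb stood above Farsa by 1.51 times in Pp6fl/fl and 1.55 times in K5.Pp6fl/fl, although their proteins join in equal numbers. The middle of the order was closely spaced, from Kars at 134 FPKM to Mars at 105 FPKM in Pp6fl/fl, and without replicates neighbours there cannot be ranked.

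**Figure D2:**
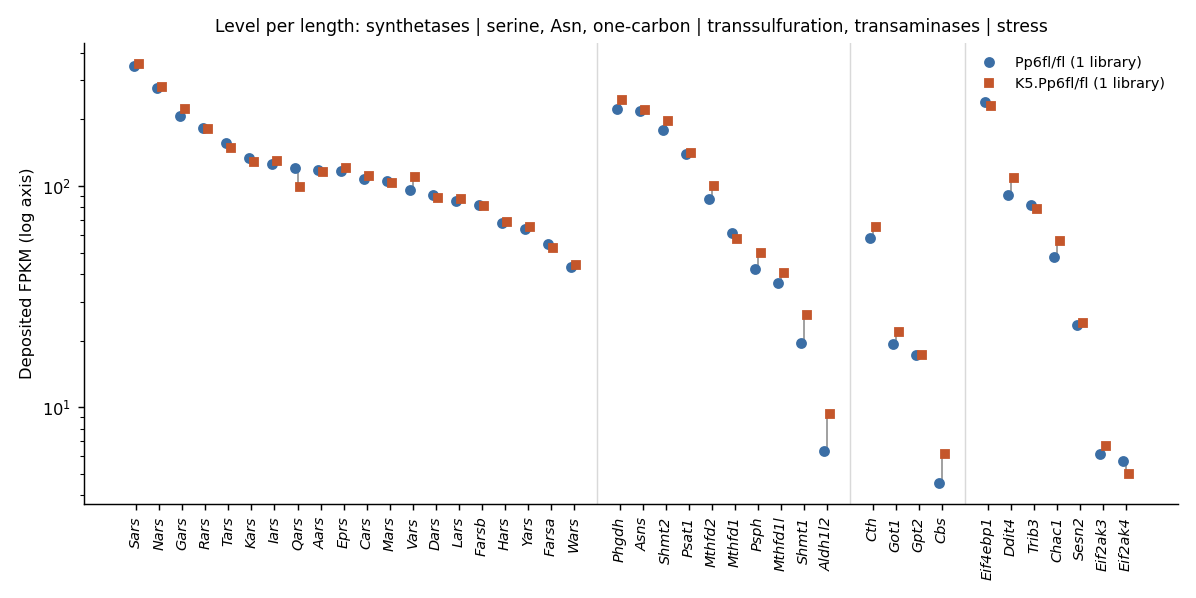
Deposited FPKM (log axis) of the 41 genes in the Pp6fl/fl library (circles) and the K5.Pp6fl/fl library (squares), 1 library each, ordered by level within each role. Sars, Phgdh, Cth and Eif4ebp1 lead their groups in both libraries, and the widest gaps between the libraries are at Aldh1l2, Shmt1 and Cbs.

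For most amino acids a separate nuclear gene encodes the mitochondrial synthetase. All 17 of these genes were expressed, with FPKM from 3.0 to 46.0 in Pp6fl/fl. In each of 17 pairs the cytosolic gene was higher per length in both libraries, by 1.95 to 37.7 times in Pp6fl/fl with a median of 5.56, and by 2.21 to 43.2 times in K5.Pp6fl/fl with a median of 5.69. Sars exceeded Sars2 by 37.7 and 34.4 times, and Yars exceeded Yars2 by only 1.95 and 2.3 times. Between genotypes the mitochondrial genes had a median log2 ratio of -0.05, with 1 interval above 1 and 3 below. Lars2 and Iars2, the most abundant by CPM, had ratios of 1.15 (1.08 to 1.21) and 0.99 (0.933 to 1.05). Per length Tars2 was the highest, at 46.0 FPKM in Pp6fl/fl and 40.5 in K5.Pp6fl/fl. Pars2 and Cars2 were lowest, at 0.795 (0.658 to 0.959) and 0.837 (0.709 to 0.988). By FPKM the ratio of Pars2 was 0.568, from 11.6 to 6.61, a larger difference than by counts.

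**Figure D3:**
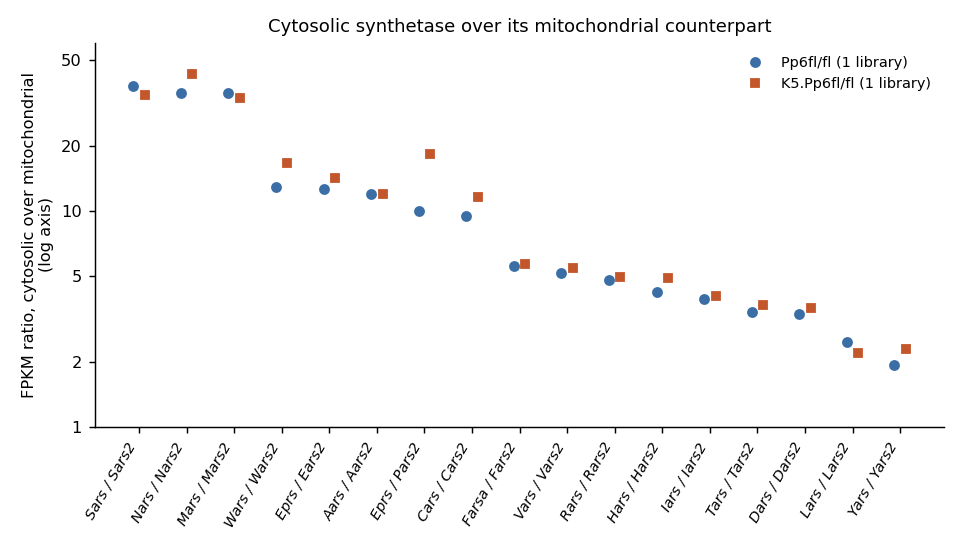
FPKM of each cytosolic synthetase gene divided by that of its mitochondrial counterpart (log axis), in the Pp6fl/fl library (circles) and the K5.Pp6fl/fl library (squares), 1 library each. All 17 pairs lie above 1, and the Eprs to Pars2 pair shows the widest gap between the libraries (10.03 and 18.3).

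Of the 10 enzymes of serine, asparagine and one-carbon metabolism, 8 had a ratio above 1, against 44.6% of genes at 50 CPM or more. An interval above 1 was found for 6 of the 10, Aldh1l2, Mthfd2, Phgdh, Psph, Mthfd1l and Shmt2, against 21.8% of genes at 50 CPM or more. Mthfd1 alone had an interval below 1. The median log2 ratio was 0.13, and the reads of the group summed to 1984 and 2100 CPM, a ratio of 1.06 (1.04 to 1.07). The median ratio therefore lay 1.09-fold above equality, a small difference of the size seen in many genes, since the 90th percentile of log2 ratios among genes at 50 CPM or more was 0.19. The difference from the synthetases, whose median was -0.02, could not be tested with 1 library per genotype.

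Serine synthesis starts with Phgdh, the dehydrogenase that draws on glycolysis. Phgdh had 6840 reads in Pp6fl/fl and 6767 in K5.Pp6fl/fl, or 353 and 389 CPM, a ratio of 1.1 (1.06 to 1.14). Psat1, the transaminase of the next step, was at 310 and 312 CPM, a ratio of 1.01 (0.971 to 1.05). Psph, the phosphatase that releases serine, was at 59.8 and 65.8 CPM, a ratio of 1.1 (1.01 to 1.19). The first and the last step were thus higher, and the middle one did not differ beyond counting error. Psph shares exon sequence with Cct6a on the opposite strand, a gene at 522 and 504 CPM. The sum of both had a ratio of 0.981 (0.954 to 1.01), but it consists mostly of Cct6a reads and says little about Psph alone. Asns, which makes asparagine and is a classical ATF4 target, had 7114 and 6476 reads, or 368 and 373 CPM, a ratio of 1.01 (0.98 to 1.05). By level per length Phgdh and Asns led the group, at 222 and 219 FPKM in Pp6fl/fl and 246 and 221 in K5.Pp6fl/fl.

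The folate enzymes are given by compartment, a grouping made after their values were seen. The 4 mitochondrial enzymes all had intervals above 1, against 21.8% of genes at 50 CPM or more, a level all 4 reached. Shmt2, which splits serine into glycine and a one-carbon unit, was at 358 and 391 CPM, a ratio of 1.09 (1.06 to 1.13). Mthfd2, which oxidises that unit, was at 154 and 175 CPM, a ratio of 1.13 (1.08 to 1.19). Mthfd1l, which releases it as formate, was at 120 and 131 CPM, a ratio of 1.09 (1.03 to 1.16). Aldh1l2, which oxidises it to carbon dioxide, was at 35.0 and 51.0 CPM, from 677 and 886 reads, a ratio of 1.46 (1.32 to 1.61). Their summed ratio was 1.12 (1.09 to 1.15).

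Aldh1l2 had the largest ratio of the 41 genes, and its value carries a limit. It shares 1056 bases of exon sequence with D10Wsu102e on the opposite strand, and the library kit did not mark strand. D10Wsu102e was lower in K5.Pp6fl/fl, at 70.7 and 58.4 CPM, a ratio of 0.826 (0.761 to 0.897), and the sum of both genes was 1.03 (0.972 to 1.1). For Aldh1l2 the authors' deposited table has an FDR of 1.31e-08 and a log2 fold change of 0.55. How the reads of the shared stretch were divided between the genes was not tested.

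The 2 cytosolic folate enzymes did not share that direction. Mthfd1, the trifunctional cytosolic enzyme, was at 186 and 174 CPM, a ratio of 0.935 (0.89 to 0.981). Shmt1, the cytosolic counterpart of Shmt2, was at 39.6 and 38.2 CPM, a ratio of 0.964 (0.867 to 1.07). Shmt1 reversed by FPKM, from 19.4 to 26.1, a ratio of 1.34. It shares 184 exon bases with Smcr8, and the sum of both genes had a ratio of 0.958 (0.907 to 1.01). Most reads of that sum are those of Smcr8, at 2116 and 1816, so it says little about Shmt1 alone. By FPKM, Shmt2 stood above Shmt1 by 9.2 times in Pp6fl/fl and 7.51 times in K5.Pp6fl/fl. Other folate genes did not follow the division by compartment. The cytosolic Aldh1l1 was higher, at 6.05 and 9.38 CPM (1.55, 1.22 to 1.98), the mitochondrial Mthfd2l was at 1.07 (0.753 to 1.51), and Slc25a32, which carries folate into the mitochondria, was lower at 0.847 (0.72 to 0.996). Mthfd2l and Slc25a32 were named after their values were seen.

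The wider list of 17 other one-carbon and folate genes had 15 expressed members and a median log2 ratio of -0.05, with 3 intervals above 1 and 5 below. Ahcy and Mat2a, of the methionine cycle and the most abundant by CPM, had ratios of 0.951 (0.909 to 0.994) and 0.982 (0.932 to 1.03). Fpgs, which traps folate in the cell by adding glutamate, was lower at 67.0 and 53.4 CPM (0.797, 0.732 to 0.868). Amt, of the glycine cleavage system, was the only gene of the list past the 2-fold rule, from 32 reads to 6 (0.209, 0.0714 to 0.506), at a level close to the floor. Unlike the enzymes of the set, this list thus held more intervals below 1 than above. So did all expressed genes, with 17.4% below and 16.6% above, and genes at 50 CPM or more, with 26.2% and 21.8%. Whether the list leaned further than these genes was not tested.

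The transsulfuration enzymes and transaminases were all at ratios above 1, with 3 of 4 intervals above 1. A log2 ratio above 0 was found for 47.0% of all expressed genes and for 44.6% of those at 50 CPM or more. Over all expressed genes 16.6% had an interval above 1, and over genes at 50 CPM or more 21.8%. Of the 4 genes, 2 reached 50 CPM. Cbs, which joins homocysteine and serine, was the lowest of the 41 genes in reads, with 187 and 208, or 9.66 and 12.0 CPM, and its ratio of 1.24 had a wide interval (1.01 to 1.52). Cth, which splits the product into cysteine, was at 86.9 and 97.2 CPM, a ratio of 1.12 (1.04 to 1.2). Got1, the cytosolic aspartate transaminase, was at 29.1 and 33.3 CPM, a ratio of 1.14 (1.02 to 1.29). Gpt2, the mitochondrial alanine transaminase, was at 55.8 and 57.0 CPM, a ratio of 1.02 (0.936 to 1.11). The group's reads summed to 181 and 199 CPM, a ratio of 1.1 (1.05 to 1.15). In contrast Got2, the mitochondrial aspartate transaminase, was at 342 and 313 CPM, a ratio of 0.915 (0.883 to 0.949).

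Among 14 other enzymes of amino acid synthesis, with Got2 among them, 4 intervals lay above 1 and 4 below, and the median log2 ratio was 0.06. Proline synthesis split within itself. Pycr1, the mitochondrial reductase, was at 1.28 (1.04 to 1.57), and its relative Pycrl was at 0.828 (0.721 to 0.949). Glud1, glutamate dehydrogenase and the second most abundant of the list, was at 0.952 (0.916 to 0.99).

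The stress sensors and effectors went both ways. The 7 genes had a median log2 ratio of 0.02 and ran from -0.23 to 0.24, with 2 intervals above 1 and 1 below. Ddit4, which inhibits mTORC1, had 2446 and 2595 reads, or 126 and 149 CPM, a ratio of 1.18 (1.12 to 1.25). Chac1, which degrades glutathione, was at 64.0 and 74.6 CPM, a ratio of 1.17 (1.08 to 1.26). The authors' deposited table lists FDR values of 0.00102 for Ddit4 and 0.0183 for Chac1. Trib3, a pseudokinase that is a classical ATF4 target, was at 129 and 127 CPM, a ratio of 0.987 (0.931 to 1.05). Sesn2, a leucine sensor, was at 74.7 and 75.8 CPM, a ratio of 1.01 (0.941 to 1.09). Eif4ebp1, which blocks the cap-binding factor eIF4E, was at 162 and 156 CPM, a ratio of 0.962 (0.914 to 1.01). Of the 5 effectors only Ddit4 and Chac1 thus lay off 1.

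The eIF2 kinases were the lowest of this group per length. Eif2ak4, which encodes GCN2, had 532 and 407 reads, or 27.5 and 23.4 CPM, a ratio of 0.852 (0.747 to 0.971), the lowest ratio of the 41 genes. Eif2ak3, which encodes PERK, was at 25.1 and 27.2 CPM, a ratio of 1.09 (0.955 to 1.23). Their levels were 5.74 and 4.99 FPKM for Eif2ak4 and 6.14 and 6.68 FPKM for Eif2ak3. Summed with the other 2 eIF2 kinases, Eif2ak1 and Eif2ak2, the reads had a ratio of 0.968 (0.911 to 1.03).

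A list of 14 genes, for the other eIF2 kinases, eIF2, its exchange factor eIF2B, its phosphatase subunits and the GCN2 regulators Gcn1l1 and Impact, had a median log2 ratio of -0.07, with 1 interval above 1 and 4 below. Gcn1l1, named after its values were seen, was 1 of the 4, at 0.899 (0.861 to 0.939). The list's share below 1 was 28.6%, near the 26.2% of genes at 50 CPM or more. Its share above 1 was 7.14%, against 21.8% of those genes. Eif2s2 and Eif2s3x, subunits of eIF2 and the most abundant, were at 1.07 (1.04 to 1.11) and 0.967 (0.93 to 1.0). The largest ratios in size were those of the eIF2B subunits Eif2b1, at 0.886 (0.811 to 0.968), and Eif2b4, at 0.893 (0.824 to 0.967). All 5 eIF2B genes had ratios below 1, with 3 intervals below 1 and a summed ratio of 0.929 (0.897 to 0.961), a count made after their values were seen. Of genes at 50 CPM or more, a level all 5 reached, 26.2% had an interval below 1 and 44.6% a log2 ratio above 0.

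Atf4 itself did not differ beyond counting error, with 12916 and 11577 reads, or 667 and 666 CPM, a ratio of 0.998 (0.973 to 1.02). Its activity is set largely by translation, which these data do not measure. A list of 25 ATF4 and stress response genes outside the set, Atf4 included, had a median log2 ratio of -0.05, with 6 intervals above 1 and 4 below. Slc38a2, a neutral amino acid transporter and the most abundant of the list by CPM, was lower, at 0.91 (0.891 to 0.929). Per length Atf4 stood above it, at 470 FPKM in both libraries against 235 in Pp6fl/fl and 215 in K5.Pp6fl/fl. Slc7a3, a transporter of cationic amino acids, was higher at 5.79 and 8.46 CPM (1.46, 1.13 to 1.89), as was Stc2, a secreted glycoprotein, at 14.1 and 19.3 CPM (1.37, 1.16 to 1.61). These genes thus gave no common direction.

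**Figure D4:**
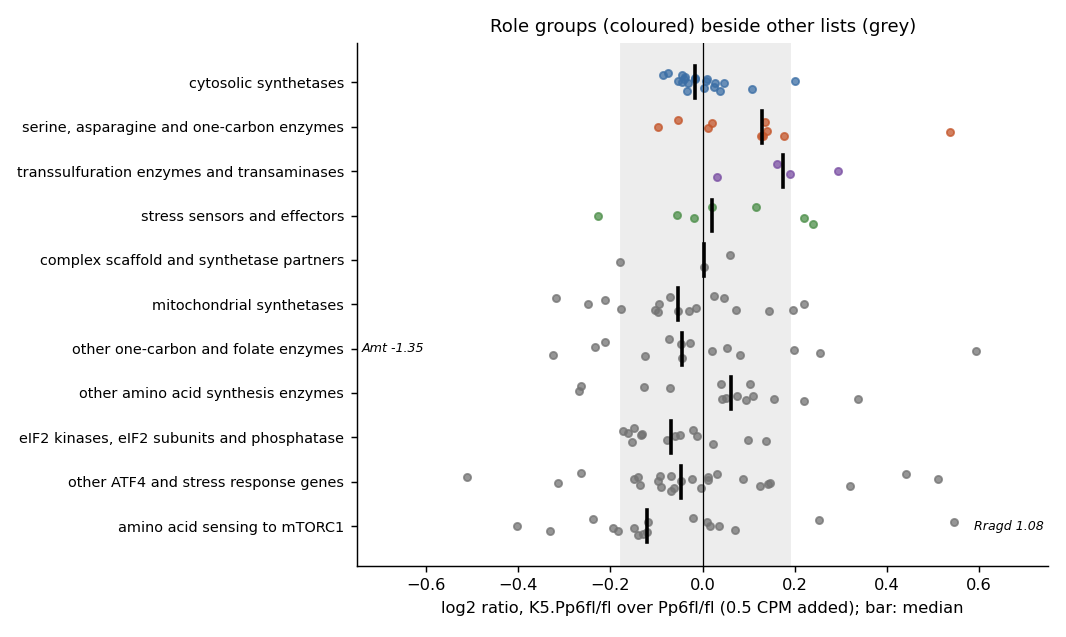
Log2 ratios, K5.Pp6fl/fl over Pp6fl/fl with 0.5 CPM added, of the expressed genes in the 4 role groups (coloured) and in 7 other lists (grey), 1 library per genotype. Points are genes spread vertically for sight, bars are medians, the grey band is the 10th to 90th percentile of genes at 50 CPM or more, and genes beyond the axis are written with their value. The medians of the serine group (0.13) and of the transsulfuration group (0.18) are the highest.

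The genes with a motif match in the promoter window were set beside those without. The 9 with a match had a median log2 ratio of 0.02 and ran from -0.08 to 0.22, with 4 intervals above 1 and 1 below. The 22 without had a median of 0.02 and ran from -0.23 to 0.29, with 7 above and 3 below. Both sides held genes of either direction. Neither side held the 10 genes without a window: Cars, Hars, Lars, Nars, Rars, Vars, Wars, Aldh1l2, Cth and Eif4ebp1. These include Aldh1l2, with the largest ratio of the set, and Vars, with the largest of the synthetases. Asns and Trib3, whose sequences are printed above, did not differ beyond counting error, and Chac1 and Got1 were higher.

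For 39 of the 41 genes the log2 ratios by counts and by FPKM differed by no more than 0.2. That limit is wider than most of the log2 ratios themselves. Among those 39, Cars, Mars, Sars, Wars, Yars and Gpt2 changed sign by FPKM, and each had an interval that included 1. Beyond the limit were Shmt1, at -0.05 by counts and 0.42 by FPKM, and Qars, at 0.00 by counts and -0.29 by FPKM. Qars had 1959 and 1763 reads, or 101 and 101 CPM, against 121 and 98.7 FPKM. The isoforms of these genes were not analysed here, and the cause was not tested. Of the 41 genes, 6 had an FDR under 0.05 in the authors' deposited table, and all 6 were listed as higher: Vars, Phgdh, Mthfd2, Aldh1l2, Chac1 and Ddit4. Over all expressed genes 8.86% were so listed as higher and 5.5% as lower, and of genes at 50 CPM or more 11.5% and 8.2%. That FDR rests on 1 library per genotype too.

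**Figure D5:**
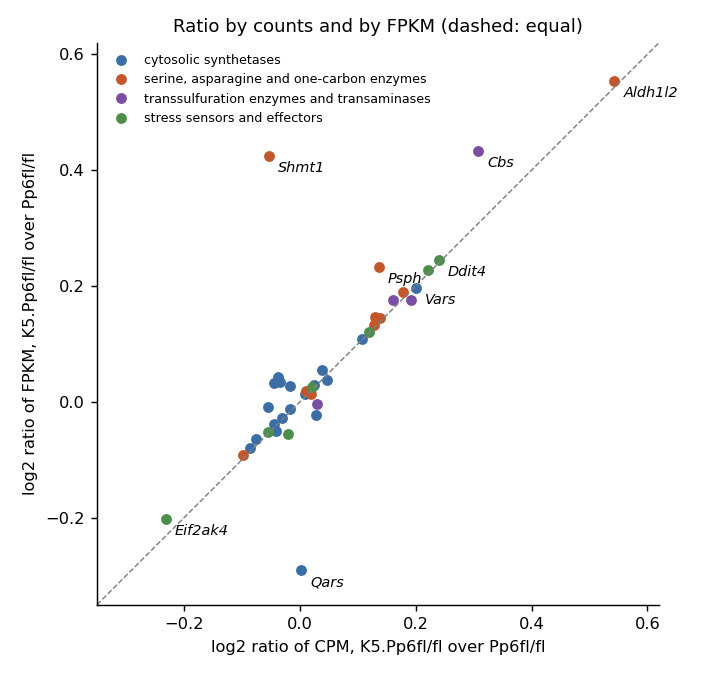
Log2 ratio by deposited FPKM against log2 ratio by CPM for the 41 genes, K5.Pp6fl/fl over Pp6fl/fl, 1 library per genotype, coloured by role. The dashed line marks equal ratios, from which Shmt1 (0.42 by FPKM) and Qars (-0.29 by FPKM) stand apart.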

How the data were processed

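RNA of 2 keratinocyte cultures was sequenced after Trizol extraction, oligo(dT) capture and a TruSeq library kit, per the labels' protocols. The submitters' processing notes list RSEM, edgeR and build mm8, with neither version nor role. As for aligner, annotation release and filters, they were not given in the sources used. What the authors deposited are estimated counts scaled by 1 constant per library, as the values show: dividing by the commonest non-zero value (0.945742 for Pp6fl/fl, 1.05737 for K5.Pp6fl/fl) made 97.3% and 97.3% of the values under 100 reads whole within 0.01 reads. These reads, rounded, were used. The deposited FPKM values, log2 fold changes, p-values and FDR are the authors' own, and the variance their test assumed was not given in the sources used.

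Symbols were matched by Ensembl gene ID (47219 of 47719). CPM used TMM-scaled library sizes (edgeR 4.0.16, R 4.3.3), and intervals came from SciPy 1.17.1. PCR copies cannot be told from separate molecules in these reads, so intervals cover counting error only. No count model was run, as there were no replicates. The ratio and interval step was tested on simulated data. Alternatives were other pseudocounts, floors and library sizes (DESeq2 1.42.0 size factors, totals), FPKM, means, and leaving out genes that share exons. The members and lists were chosen with earlier results of these data known. All 41 genes could be named. From other lists the text names genes past the 2-fold rule and the 2 most abundant by mean CPM. It also names the 2 with the largest log2 ratio in size at 5 CPM or more. This naming rule gave values in both libraries to the 41 genes alone, and those of some other genes were added.

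Exon overlaps came from GENCODE M21 (GRCm38). The files' named build differs, so no coordinates other than those of the RefSeq promoter windows are given. The promoter stretch of 1 gene is not reported here.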

Additional observations from a re-analysis of the deposited data

How the results depend on the processing

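Under the alternatives 653 values stayed within their counting error, or for counts within 1.5 times, and 10 moved. No value of a member with an interval off 1 changed sign. The median log2 ratio of the serine, asparagine and one-carbon enzymes ran from 0.11 (mean in place of median) to 0.14 (FPKM). That of the synthetases ran from -0.02 to 0.01 and changed sign by FPKM (0.01), as did those of the multi-synthetase complex (-0.02) and of the scaffold genes (-0.01, and -0.04 as a mean). The count of members with an interval above 1 was 14 or 15. With total reads as library sizes, 2 enzymes of the multi-synthetase complex had an interval above 1 in place of 1. In the other lists, the single 2-fold lower one-carbon gene (Amt) fell to 0 with a pseudocount of 2 CPM, with a floor of 5 CPM and by FPKM, and the single 2-fold higher mTORC1 gene (Rragd) fell to 0 with a pseudocount of 2 CPM and with a floor of 5 CPM. By FPKM the log2 ratios of Shmt1 (0.41), Qars (-0.29), Cars (0.03) and Sars (0.03), with 1 FPKM added, moved beyond their counting intervals. The cause was not tested. No paired analysis was possible because each genotype has 1 library, and no library could be left out. Depth limits Cbs most, with 187 reads in Pp6fl/fl.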

Other observations

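A list of 19 genes carries amino acid signals to the growth kinase mTORC1. Expressed were 18 of them, with 7 intervals below 1 and 3 above, against 17.4% and 16.6% of all expressed genes. The median log2 ratio was -0.12 and the mean 0.00. Rraga, a GTPase that recruits mTORC1 to the lysosome and the most abundant of the list by CPM, was at 133 and 121 CPM, a ratio of 0.914 (0.863 to 0.969). Seh1l, a subunit of the GATOR2 complex, was at 0.985 (0.924 to 1.05). Sesn1, a relative of the leucine sensor Sesn2, was lower at 25.5 and 19.2 CPM (0.752, 0.652 to 0.866). Castor2, a relative of the arginine sensor Castor1, was higher at 9.15 and 13.6 CPM (1.48, 1.22 to 1.81). Rragd was the only gene past the 2-fold rule, with 7 reads in Pp6fl/fl and 23 in K5.Pp6fl/fl, a ratio of 3.66 (1.52 to 10.1). Its FPKM went from 0.0776 to 1.5.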
